A study of Mus musculus with 27 samples.

Results

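The genes described here encode the protein subunits of oxidative phosphorylation, that is of respiratory complexes I to IV and of ATP synthase (complex V). They were chosen by symbol alone. Protein-coding genes whose symbol in the GENCODE vM21 annotation begins with Nduf and a subunit letter and number, is Sdha to Sdhd, or begins with Uqcr, Cox and a digit from 4 to 8, Atp5 or mt- were taken, which gave 96 of the 22524 genes counted. Of these, 84 lie in the nuclear genome, with 37 subunits of complex I, 4 of complex II, 8 of complex III, 18 of complex IV and 17 of complex V. The other 12 lie on the mitochondrial chromosome, with 6 subunits of complex I, 1 of complex III, 3 of complex IV and 2 of complex V, and 1 mitochondrial protein-coding gene is not analysed here. Cyc1, a subunit of complex III, and Ndufab1, a subunit of complex I, fall outside these symbols and are given apart.

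In oxidative phosphorylation, complexes I and II pass electrons from NADH and succinate to ubiquinone, complex III passes them on to cytochrome c, and complex IV reduces oxygen. Complexes I, III and IV pump protons across the inner mitochondrial membrane, and complex V uses their return to make ATP. The complexes other than complex II combine subunits made from nuclear messages with core subunits made inside the mitochondrion, so that 2 transcription systems feed each of them. Absorptive cells of the small intestine rely on this ATP for ion and nutrient transport, and cells in culture can also draw on glycolysis.

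RNA was measured in 27 libraries. Organoids, 3-dimensional epithelial cultures grown from jejunal crypts, came from 9 male C57BL/6 mice of 8 to 12 weeks. They were housed at 3 facilities with 3 mice each, the specific-pathogen-free (SPF) facilities SR (cultures Z908, Z909 and Z910) and SE (Z911, Z912 and Z913) and the germ-free facility GF (Z917, Z918 and Z919). The mice of a facility were cohoused littermates, so that facility and litter cannot be told apart. Each organoid culture, at passages 5 to 8, and each of 3 cultures of m-ICc12, an immortalised small intestinal epithelial cell line of the mouse, gave 1 library labelled untreated and 1 labelled as treated with murine TNF at 5 ng/ml for 8 hr. Mouse embryonic fibroblasts (MEFs) gave 3 untreated libraries. Nothing states how the 3 cultures of m-ICc12 or of MEFs were kept apart, so that p-values involving them measure the spread between these samples, which may be technical. The 3 cell types were grown in different media, which cannot be told apart from cell type. Treatment follows the sample labels, although for the 12 organoid and m-ICc12 cultures the names of the deposited data give the opposite treatment.

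The totals lay between 6071103 and 43843615 counts per library, the lowest in the library labelled TNF of m-ICc12 1, where the single gene Lars2 took 13.5% of the counts. Intestinal epithelial markers (12 genes) summed to 4465 to 5823 CPM (counts scaled to the same library total) in the organoid libraries labelled untreated, 699 to 767 CPM in m-ICc12 and 6.22 to 8.82 CPM in MEFs, and 0 of the 12 were at 0 throughout a group. In m-ICc12 cells 681 CPM of this sum were Krt20, whereas the adhesion gene Epcam stood at 4.36 CPM, against 976 CPM in organoids. Fibroblast markers (10 genes) summed to 14.1 to 32.6, 1864 to 3033 and 6027 to 7268 CPM in the same order, with Col1a1 at 1.34, 0.82 and 2076 CPM on average and 2 of the 10 at 0 throughout each group. In the m-ICc12 libraries labelled TNF, the single gene Vim had a mean of 2345 CPM of a mean sum of 2375 CPM. Muscle markers (5 genes) summed to 19.5 to 128 CPM in organoids, with 1 of 5 at 0, and to means of 0.556 CPM in m-ICc12 and 4.43 CPM in MEFs, with 2 and 3 of 5 at 0. Endothelial (3 genes) and immune (6 genes) markers summed to at most 17.99 CPM in any of these libraries. The TNF targets Nfkbia, Tnfaip3, Nfkb2 and Relb were all higher in the libraries labelled untreated. Nfkbia, the inhibitor that NF-kB itself induces, had a mean of 195.8 CPM there against 31.1 CPM in the organoid libraries labelled TNF (log2 difference 2.66, SE 0.095, edgeR quasi-likelihood adjusted p = 6.41e-17). This goes against the labels, and libraries are therefore called by their labels throughout. If the labels were exchanged, the comparisons of organoids and m-ICc12 with MEFs set TNF-treated cultures against untreated ones, and they were also run with the libraries labelled TNF. Then 64, 68 and 16 nuclear subunits were higher in organoid against m-ICc12, organoid against MEF and m-ICc12 against MEF, where 62, 68 and 19 were with those labelled untreated.

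The promoters of the nuclear genes were searched for 4 motifs of factors known from respiratory genes. Of the 84 nuclear genes, 66 matched a RefSeq promoter window by symbol (build GRCm38.p6, 250 bases before to 50 after the start). The core motif of NRF1, a factor named after the respiratory genes it binds (GCGCNTGCG, both strands), was in 21 windows, or 31.8%, beside 6.59% of all 27025 windows and 8.95% of the 17491 of coding genes. The YY1 motif AAGATGGCG was in 6 windows, or 9.09%, beside 1.49% of all and 1.94% of coding genes. The ETS motif CCGGAAGT, which GABP binds, was in 5, or 7.58%, beside 1081 of the 27025 and 5.29% of coding genes. The oestrogen-related receptor (ERR) motif TCAAGGTCA was in 2, or 3.03%, beside 0.407% of all and 0.332% of coding genes. At least 1 of the 4 was in 43.9% of the member windows, 11.6% of all windows and 15.2% of those of coding genes. Matches of 1 motif may overlap on the opposite strands, and a match describes the letters and is not a bound site. The stretches below, read 5′ to 3′ on the gene's strand and ending where annotated exons begin, show 4 genes with the motif in capitals, and Ndufb8, which went against the other nuclear genes in the comparison of organoids with m-ICc12 and whose window held none of the 4 motifs.
Cox6a1, chr5:115348982-115349129, minus strand, with the NRF1 motif in 2 stretches: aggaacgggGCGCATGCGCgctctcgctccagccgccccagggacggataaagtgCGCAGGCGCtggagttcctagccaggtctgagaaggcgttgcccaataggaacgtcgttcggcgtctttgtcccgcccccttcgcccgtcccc
Ndufs5, chr4:123718203-123718436, minus strand, with the NRF1 motif: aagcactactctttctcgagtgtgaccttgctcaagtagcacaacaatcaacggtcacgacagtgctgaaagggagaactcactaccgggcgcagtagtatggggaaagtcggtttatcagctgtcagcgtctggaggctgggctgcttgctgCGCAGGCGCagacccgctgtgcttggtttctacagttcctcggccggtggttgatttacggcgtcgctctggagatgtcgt
Uqcrh, chr4:116075072-116075268, minus strand, with the ETS motif: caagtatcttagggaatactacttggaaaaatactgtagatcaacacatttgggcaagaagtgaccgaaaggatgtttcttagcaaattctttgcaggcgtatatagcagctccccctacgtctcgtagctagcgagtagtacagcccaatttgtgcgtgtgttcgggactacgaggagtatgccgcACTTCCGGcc
Atp5g3, chr2:73911327-73911576, minus strand, with the ERR motif: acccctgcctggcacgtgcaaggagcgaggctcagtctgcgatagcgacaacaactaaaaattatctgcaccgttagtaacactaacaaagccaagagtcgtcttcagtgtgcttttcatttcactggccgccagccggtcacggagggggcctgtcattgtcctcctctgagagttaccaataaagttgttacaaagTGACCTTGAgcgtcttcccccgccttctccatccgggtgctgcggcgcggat
Ndufb8, chr19:44555443-44555692, minus strand, no motif: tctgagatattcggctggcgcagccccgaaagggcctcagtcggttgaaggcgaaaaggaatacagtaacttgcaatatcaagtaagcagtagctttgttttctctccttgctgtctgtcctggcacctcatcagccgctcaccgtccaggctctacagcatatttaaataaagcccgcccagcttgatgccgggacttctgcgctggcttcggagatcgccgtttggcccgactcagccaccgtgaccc

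The mitochondrial genes have copies in the nuclear genome, and the 2 sequences can be alike. Every stretch of 120 bases of the transcripts was looked up on both strands of all other annotated transcripts (GRCm38, GENCODE vM21). Between 98.3% and 99.8% of the stretches of mt-Co2, mt-Co3, mt-Atp6 and mt-Nd4l were shared with unprocessed pseudogenes that lie side by side on chromosome 1. For mt-Nd4 the share was 60.1%, for mt-Co1 27.3% and for mt-Nd2 1.09%, and it was 0% for mt-Nd1, mt-Nd5, mt-Nd6, mt-Cytb and mt-Atp8. None of these pseudogenes is among the 22524 genes counted. The windows below are 60 bases from the aligned part of a gene and of its copy. The 783 aligned bases of mt-Co3 and Gm28437 (chr1:24613189-24613971) held 0 mismatches, and the 492 of mt-Co1 and Gm29216 (chr1:24615706-24616197) held 6, which stand in capitals.
mt-Co3, bases 362 to 421 of the transcript: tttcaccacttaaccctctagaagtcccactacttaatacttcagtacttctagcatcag
Gm28437, the same stretch: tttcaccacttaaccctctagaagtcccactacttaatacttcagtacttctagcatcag
mt-Co1, bases 1054 to 1113 of the transcript: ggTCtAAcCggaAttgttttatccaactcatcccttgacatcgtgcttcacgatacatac
Gm29216, the same stretch: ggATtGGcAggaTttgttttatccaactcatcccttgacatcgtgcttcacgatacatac

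In the 27 libraries, mt-Atp8 had 0 counts, mt-Co2 had 9 counts in 1 library and mt-Atp6 12 counts in 1 library. mt-Atp8 shares no such stretch with another annotated transcript, but the search could not find a nuclear copy that is not annotated. mt-Co3 had 410 counts over 12 libraries and mt-Nd4l 306 counts over 18. The other 7 mitochondrial genes had at least 10 counts in every library. How reads that align equally well to several places were counted is not given in the sources used here, and its part in these low values was not tested. No level of mt-Atp8, mt-Co2, mt-Atp6, mt-Co3 or mt-Nd4l should be read as a level of the message. Of the nuclear genes, 75 of 84 had at least 10 counts in every library, and Cox8b and Cox8c, isoforms of a complex IV subunit, were at 0 in all 27. For a share of the sequence of Atp5g2 (33.9%), Atp5o (23.2%), Ndufa13 (22.6%), Ndufb6 (20.9%) and Ndufb4 (15.1%) another gene also holds the same 120 bases, so that their values are less certain.

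The summed level of the subunits was highest in organoids. The 84 nuclear genes together had 17643 ± 696 CPM (SD, n = 9; 16668 to 19066) in the organoid libraries labelled untreated. The sum was 12162, 10896 and 10324 CPM in the m-ICc12 libraries labelled untreated and 9547, 8430 and 9864 CPM in the MEF libraries. Among these libraries the lowest of organoids thus lay above every one of m-ICc12, and the lowest of m-ICc12 above every one of MEFs. In the m-ICc12 libraries labelled TNF the sum was 8884, 12684 and 10693 CPM, so that 1 of them lay below 2 of the MEF libraries. The 12 mitochondrial genes summed to 38563 ± 13791 CPM (SD, n = 9; 25318 to 63900) in organoids. They reached 22372, 32920 and 14065 CPM in m-ICc12 and 13511, 8951 and 12816 CPM in MEFs. Here the organoid and m-ICc12 ranges overlapped, and all MEF libraries lay below both. CPM are scaled with TMM factors (the trimmed mean of M-values) and are shares of a library. In such bulk samples, fewer cells of a type and less RNA per cell cannot be told apart.

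**Figure D1:**
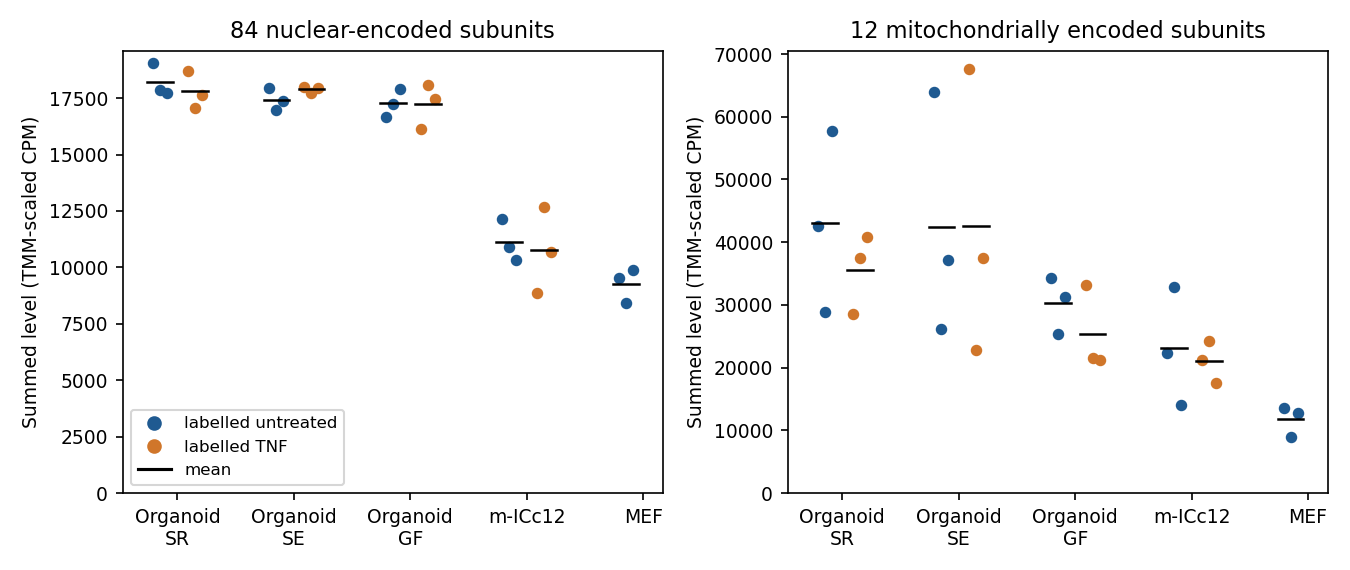
Summed TMM-scaled CPM (vertical axes) of the 84 nuclear and of the 12 mitochondrial genes in each of the 27 libraries (points), by cell type, facility and label, with bars at the group means. The nuclear sums of organoids stand apart from the cell lines in all libraries, and the mitochondrial sums of organoids spread from 21278 to 67587 CPM.

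The first comparison asked how the subunits differ between primary epithelial cultures and an epithelial cell line. In organoids 62 of the 80 nuclear genes tested were higher than in m-ICc12 and 2 were lower (adjusted p under 0.05), where 31.6% of all 12962 genes tested were called higher and 29.3% lower. The median log2 difference was 0.89 over these nuclear genes and 0.03 over all genes. For 52 of the 84 genes the lowest of the 9 organoid libraries lay above the highest of the 3 m-ICc12 libraries. The share of all genes that separate in this way is not given, so that this count only describes the members. All 4 genes of complex II, all 8 of complex III and 13 of the 14 tested of complex IV were called higher, but only 26 of 37 of complex I and 11 of 17 of complex V. Against MEFs, 68 of 79 nuclear genes tested were higher and 0 lower, where 34.6% of all 13144 genes tested were called higher and 32.6% lower. The median was 1.01. All genes of complexes II, III and V were called higher here, with 12 of 13 of complex IV and 27 of 37 of complex I.

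**Figure D2:**
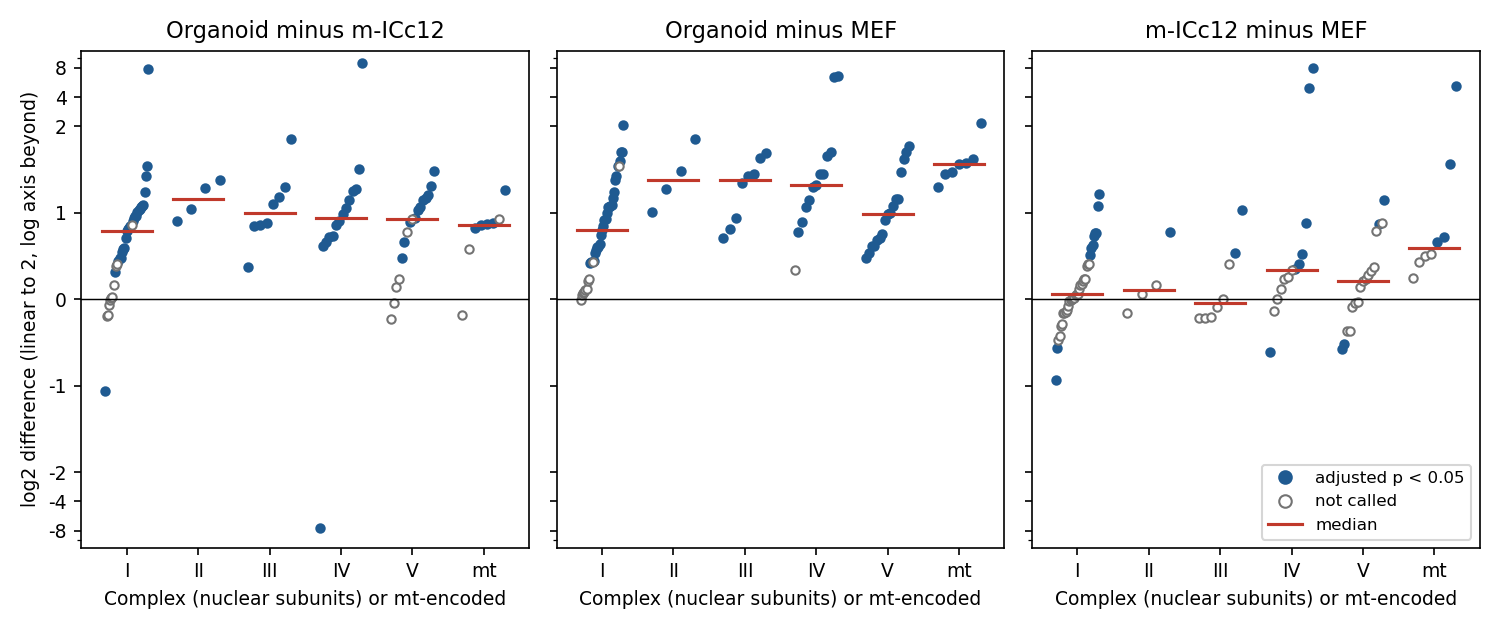
Log2 difference of each gene tested (vertical axis, linear up to 2 and logarithmic beyond) in the 3 comparisons of cell types, with nuclear genes by complex and the mitochondrial genes together, filled points for an adjusted p under 0.05 and red bars at the medians. Most points of complexes II, III and IV lie above 0 for organoids against either cell line, and the points of m-ICc12 against MEF scatter about 0 with a median of 0.15 for nuclear genes.

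Complex II, succinate dehydrogenase, which is also an enzyme of the citric acid cycle, has nuclear genes only. Sdha, the flavoprotein (chr13:74322254-74350280), had a lowest, median and highest level of 446, 477 and 550.5 CPM in organoids. It stood at 247, 271 and 260.5 CPM in m-ICc12 and 240, 274 and 211 CPM in MEFs, so that the organoid range overlapped neither. The log2 difference was 0.91 (SE 0.0945, adjusted p = 3.69e-07) against m-ICc12 and 1.01 (SE 0.10, adjusted p = 2.25e-07) against MEFs. Sdhb, the iron-sulphur subunit, had log2 differences of 1.39 and 1.27, and the membrane anchors Sdhc and Sdhd had 1.04 and 1.28 against m-ICc12 and 1.86 and 1.49 against MEFs. Per kilobase of transcript, Sdhd had the highest organoid level of the 4 with 316 CPM per kb and Sdhc the lowest with 77.9 CPM per kb. Sdhc was the 1 gene of this complex called between the cell lines, with 132, 124 and 110.1 CPM in m-ICc12 against 78.3, 69.1 and 58.9 CPM in MEFs (log2 difference 0.78, adjusted p = 0.00056).

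In complex III the hinge protein gene Uqcrh (chr4:116066965-116075071), whose promoter was shown above, had the largest difference from m-ICc12 of any subunit with counts in all libraries. Its lowest, median and highest organoid levels were 299.97, 363 and 405 CPM. They were 114, 103 and 75.7 CPM in m-ICc12 and 117, 81.1 and 129 CPM in MEFs. All organoid libraries thus lay above every cell line library. The log2 difference was 1.86 (SE 0.14, adjusted p = 8.82e-09) against m-ICc12 and 1.70 (SE 0.15, adjusted p = 3.33e-08) against MEFs. Uqcrfs1, which encodes the Rieske iron-sulphur protein, had 0.85 and 1.42, and the core proteins Uqcrc1 and Uqcrc2 had 0.85 and 0.37 against m-ICc12. Uqcrc2 separated the cell lines, with 349, 399 and 293 CPM in m-ICc12 and 181, 140 and 171 CPM in MEFs (log2 difference 1.03, SE 0.15, adjusted p = 9.15e-05). The small subunit gene Uqcrq varied widely between libraries of a cell type, from 78.6 to 208 CPM in organoids and from 35.8 to 114 CPM in m-ICc12, and was still called in both organoid comparisons (adjusted p = 0.00583 and 0.00497). Cyc1, the cytochrome c1 gene outside the symbol rule, had log2 differences of 0.76, 1.13 and 0.33 in organoid against m-ICc12, organoid against MEF and m-ICc12 against MEF, all called.

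Complex IV, cytochrome c oxidase, has subunits with tissue-specific isoforms. Cox4i1, the widespread isoform of subunit 4 (chr8:120668222-120674207), was the nuclear subunit of this complex with the highest organoid level per kilobase, 868 CPM per kb. Its organoid libraries held 546 to 768 CPM (median 639), with 344, 275 and 269 CPM in m-ICc12 and 275, 203 and 238 CPM in MEFs. The log2 difference was 1.15 (SE 0.13, adjusted p = 5.95e-07) against m-ICc12 and 1.45 (SE 0.13, adjusted p = 4.23e-08) against MEFs. Cox6a1, Cox5b, Cox7c and Cox7b, all structural subunits, had log2 differences of 1.28, 1.06, 0.98 and 0.86 against m-ICc12, all called. Cox8a and Cox6b1 were called in all 3 comparisons. Cox8a had log2 differences of 0.73 for organoid against m-ICc12, 1.65 for organoid against MEF and 0.88 for m-ICc12 against MEF (adjusted p = 0.00265, 3.65e-07 and 0.00165). Cox7a2, the widespread isoform of subunit 7a, was the 1 tested gene of the complex not called between organoids and MEFs, with 0.34 (adjusted p = 0.0516), and in m-ICc12 it was lower than in MEFs by 0.61 on the log2 scale (94.7, 91.2 and 71.3 CPM against 126.5, 87.7 and 164 CPM; adjusted p = 0.0237).

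The restricted isoforms of complex IV and of Ndufa4 were low throughout, and the cell types differed in which of them had counts. Cox4i2, the isoform of subunit 4 known from lung and for its induction by low oxygen (chr2:152754173-152765037), had 0 counts in all 18 organoid and all 3 MEF libraries. It had 10, 70 and 23 counts in the m-ICc12 libraries labelled untreated, a level at least 6.78-fold higher than the floor of 3 counts per library in organoids and at least 9.08-fold higher than that floor in MEFs (adjusted p = 0.00166 and 0.00469). The m-ICc12 libraries labelled TNF had only 1, 6 and 4 counts (mean 0.176 CPM), too few for Cox4i2 to pass the filter of 10 counts when these took the place of those labelled untreated. Cox6b2, the testis isoform of subunit 6b (chr7:4751792-4753094), had 12 to 119 counts in the 9 organoid libraries labelled untreated, 0 in all 6 m-ICc12 libraries and 0, 2 and 0 in MEFs. Its organoid level was at least 29.3-fold higher than in m-ICc12 and at least 25.3-fold higher than in MEFs (adjusted p = 0.000114 and 0.000427). The organoid libraries labelled TNF had 0 to 84 counts, with a mean of 0.846 CPM against 2.20 CPM in those labelled untreated. Ndufa4l2, the paralog of Ndufa4 that is induced by low oxygen, had 0 to 65 counts in organoids, 0 in m-ICc12, and 7, 0 and 20 in MEFs, at least 11.9-fold higher in organoids than in m-ICc12 (adjusted p = 0.00505). These floors cover counting error only. Cox4i2, Cox6b2 and Ndufa4l2 entered these tests only through the group with counts, so that their adjusted p-values add no support beyond the counts. Cox7b2 had 8 counts in 1 library, and Cox6a2, the muscle isoform of subunit 6a, had at most 14 counts in any library.

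Cox7a1, the muscle isoform of subunit 7a (chr7:30184144-30186078), was the restricted isoform with the highest level. The 9 organoid libraries had 5.56 to 17.3 CPM (median 7.93), m-ICc12 had 5.08, 2.79 and 2.86 CPM, and MEFs had 0.19, 0.05 and 0.08 CPM. The organoid libraries and those of m-ICc12 were each above every MEF library, and those of organoids were above all of m-ICc12. The log2 difference was 1.504 (SE 0.47, adjusted p = 0.0105) for organoid against m-ICc12, 6.49 (SE 0.69, adjusted p = 4.35e-07) for organoid against MEF and 4.96 (SE 0.89, adjusted p = 0.000379) for m-ICc12 against MEF. The muscle markers, whose sum also differed between these groups as given above, were not tested for a part in this. Summed per kilobase over the Cox7a family, Cox7a1 made up 4.82% ± 1.77 (SD, n = 9) in organoids, 3.62% ± 1.01 (SD, n = 3) in m-ICc12 and 0.0989% ± 0.0669 (SD, n = 3) in MEFs. Cox7a2 made up 45.9% ± 3.32, 52.2% ± 2.73 and 69.8% ± 4.34, and Cox7a2l, a related protein known as a supercomplex assembly factor, of which C57BL/6 mice carry a short form, 49.3% ± 3.15, 44.2% ± 2.85 and 30.1% ± 4.34 in the same order. The share of Cox7a2 in the lowest MEF library, 65.4%, was above the highest share in organoids, 49.3%, and in m-ICc12, 54.6%. These shares are a description with no test.

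**Figure D3:**
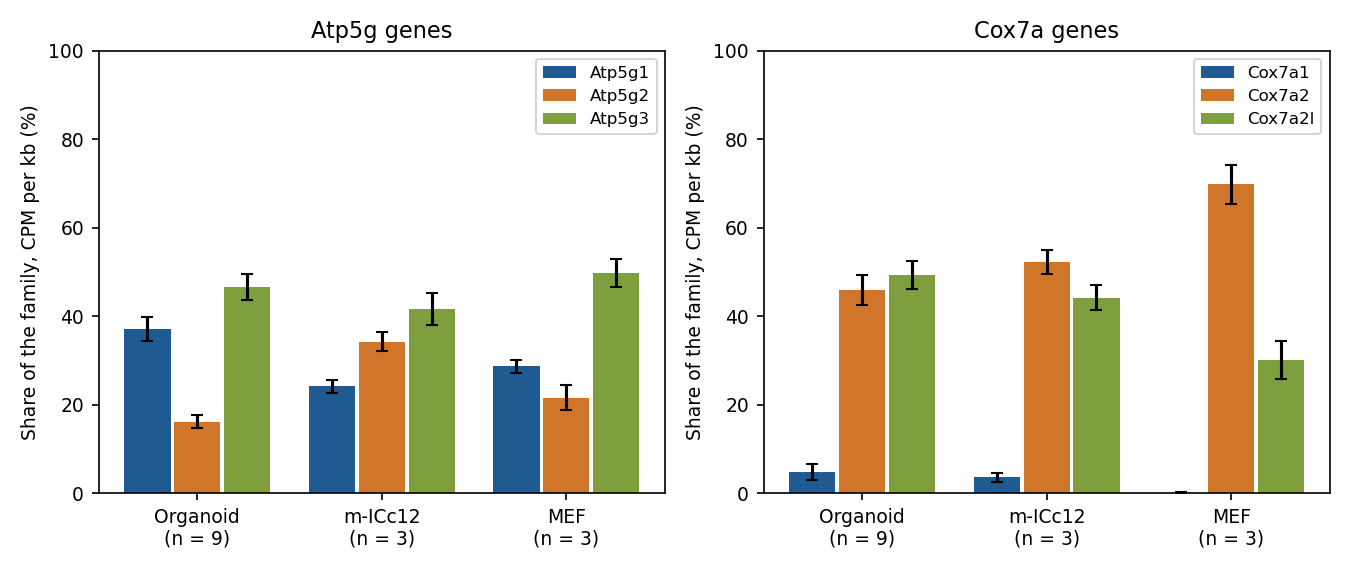
Share (percent of CPM per kb, vertical axis) of each isoform within the Cox7a and the Atp5g family, in the libraries labelled untreated of the 3 cell types, with coloured bars for the mean and black bars for the SD. MEFs have the highest share of Cox7a2 (69.8%) and m-ICc12 the highest of Atp5g2 (34.3%).

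In complex V, Atp5b, the catalytic beta subunit (chr10:128083273-128090391), had the highest level per kilobase of the nuclear genes in organoids, 1189 CPM per kb. It differed little from m-ICc12. Organoids held 1979 to 2446 CPM (median 2289), m-ICc12 2096, 2097 and 2072 CPM and MEFs 1702, 1666 and 1612 CPM. The organoid and m-ICc12 ranges overlapped and the log2 difference was 0.15 (SE 0.090, adjusted p = 0.169, 95% interval -0.03 to 0.32), whereas against MEFs it was 0.47 (SE 0.089, adjusted p = 0.000204). Its partner in the catalytic head, Atp5a1, had 1491 to 1910 CPM in organoids, 977, 899 and 939.9 CPM in m-ICc12 and 760, 873 and 835 CPM in MEFs, with a log2 difference of 0.90 (SE 0.10, adjusted p = 7.46e-07) against m-ICc12. Of the rest of the head and stalk, Atp5d had 1.203, Atp5o 1.06 and Atp5f1 0.48 against m-ICc12, all called, and Atp5c1 had 0.24 (adjusted p = 0.0528) and Atp5e -0.04 (adjusted p = 0.863). Atp5e, the epsilon subunit, had 221, 154 and 140 CPM in m-ICc12 against 83.5, 48.2 and 90.4 CPM in MEFs (log2 difference 1.15, SE 0.23, adjusted p = 0.000947). Atp5o and Atp5j, subunits of the peripheral stalk, were lower in m-ICc12 than in MEFs by 0.57 and 0.51 on the log2 scale (adjusted p = 0.00434 and 0.0214). Atp5l, the g subunit, had the lowest level per kilobase, 7.79 CPM per kb in organoids, with 1.74 to 8.36 CPM there and 1.92, 0.98 and 0.84 CPM in MEFs (log2 difference 1.78, SE 0.62, adjusted p = 0.0191). Over all its transcripts, 250 of 6536 stretches of 120 bases are shared with 5 other genes, while its principal transcript has only 544 bases. Its level is therefore less certain, and the part of this sharing in its low counts was not tested.

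Subunit c, which forms the rotating ring of ATP synthase, is made from 3 nuclear genes with different leader peptides, and these did not move alike. Atp5g1 (chr11:96068852-96075670) had 251 to 378 CPM in organoids (median 312.5), 137, 92.1 and 112 CPM in m-ICc12, and 120.3, 102.5 and 118 CPM in MEFs. Its log2 difference was 1.48 against m-ICc12 (SE 0.15, adjusted p = 3.64e-07) and 1.48 against MEFs (SE 0.14, adjusted p = 8.59e-08). Atp5g3 had 1.03 and 0.99. Atp5g2 had 80.2 to 118 CPM in organoids, 144, 95.7 and 119 CPM in m-ICc12 and 61.8, 67.1 and 60.1 CPM in MEFs. Its ranges in organoids and m-ICc12 overlapped (log2 difference -0.23, SE 0.14, adjusted p = 0.17), and both stood above all MEF libraries. Per kilobase, Atp5g2 made up 16.2% ± 1.57 (SD, n = 9) of the family in organoids, 34.3% ± 2.25 (SD, n = 3) in m-ICc12 and 21.6% ± 2.90 (SD, n = 3) in MEFs, and Atp5g1 37.2% ± 2.71, 24.2% ± 1.40 and 28.6% ± 1.43. The share of Atp5g1 rests on the shorter of its principal transcripts (596 bases). With the longest principal transcripts (4715 bases for Atp5g1) it was 7.80%, 4.72% and 5.51%, in the same order of cell types, and that of Atp5g2 was 16.2%, 31.98% and 19.9%.

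Complex I had subunits on both sides. Of its 7 nuclear core subunits, which hold the flavin and the iron-sulphur clusters, 4 were higher in organoids than in m-ICc12 and 6 higher than in MEFs. Of all genes tested, 31.6% and 34.6% were called higher in these comparisons. Ndufs3 and Ndufs7, which belong to the arm that links the clusters to the quinone site, had log2 differences of 1.07 and 0.95 against m-ICc12, both called. Ndufv1, which holds the flavin (chr19:4007384-4012806), had 175 to 223 CPM in organoids and 219, 199.6 and 191 CPM in m-ICc12, overlapping ranges with a log2 difference of 0.02 (SE 0.10, adjusted p = 0.865), while MEFs had 122, 127 and 105 CPM (log2 difference 0.80, SE 0.11, adjusted p = 5.02e-06). Ndufs1, the largest cluster-bearing subunit, had -0.06 (adjusted p = 0.713) and 0.61 (adjusted p = 0.00105) in the same comparisons. Of the subunits outside the core, Ndufc1 (1.54), Ndufb5 (1.42) and Ndufa6 (1.25) had the largest called differences from m-ICc12 after Ndufa4l2. Ndufa6 (chr15:82350140-82354322) and Ndufa10 (chr1:92439010-92473860) led the differences from MEFs. Ndufa6 had 109 to 160.1 CPM in organoids and 30.04, 26.6 and 41.0 CPM in MEFs (log2 difference 2.06, SE 0.16, adjusted p = 1.27e-08), and Ndufa10 205.5 to 260.4 CPM and 68.8, 70.4 and 72.0 CPM (1.71, SE 0.10, adjusted p = 2.64e-10). Ndufa4, which is grouped here by its symbol and is now counted with complex IV, had the highest level per kilobase, 477 CPM per kb, with log2 differences of 0.32 and 0.42 (adjusted p = 0.0108 and 0.0113). Of the 37, the 5 genes Ndufs4, Ndufs5, Ndufb4, Ndufb6 and Ndufa7 were called in neither organoid comparison. Ndufab1, outside the symbol rule, was called higher in organoids in both (1.00 and 1.08).

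Ndufb8 (chr19:44548572-44555440), an accessory subunit of the membrane arm, was the 1 nuclear gene besides Cox4i2 that was lower in organoids than in m-ICc12. The organoid libraries had 111 to 141 CPM (median 126.5). The m-ICc12 libraries had 329, 296 and 189.7 CPM, all above every organoid library, and MEFs had 136, 84.2 and 116 CPM. The log2 difference was -1.06 (SE 0.13, adjusted p = 2.64e-06) between organoids and m-ICc12 and 1.22 (SE 0.21, adjusted p = 0.000312) between m-ICc12 and MEFs, and organoids and MEFs differed by 0.21 (adjusted p = 0.167). Another annotated gene, Gm20538, shares 4.26% of the exon bases of Ndufb8 on the same strand, and its level was 70.2 ± 11.1 CPM (SD, n = 9) in organoids, 151 ± 39.3 CPM (SD, n = 3) in m-ICc12 and 57.2 ± 19.6 CPM (SD, n = 3) in MEFs. Its part in the level of Ndufb8 was not tested.

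Between the cell lines, fewer subunits differed and in both directions. In m-ICc12, 19 of the 78 nuclear genes tested were higher and 5 lower than in MEFs, where 28.1% of all 12830 genes tested were called higher and 31.2% lower, and the median log2 difference was 0.15. The 5 lower genes were Ndufb7, Cox7a2, Atp5o, Ndufa11 and Atp5j. Ndufb7, an accessory subunit on the intermembrane side of complex I, had 59.2, 34.4 and 37.6 CPM in m-ICc12 and 86.5, 75.7 and 78.6 CPM in MEFs (log2 difference -0.93, SE 0.20, adjusted p = 0.0013). Ndufa11 had -0.56 (adjusted p = 0.0374). The calls of Atp5j, Cox7a2 and Ndufa11 were lost without MEF 3, and each of them also without MEF 1 and without m-ICc12 3. Ndufb3 had 41.3, 51.5 and 49.1 CPM in m-ICc12, within the organoid range of 31.3 to 52.4 CPM, and 27.3, 19.4 and 18.3 CPM in MEFs (log2 difference between the cell lines 1.08, SE 0.20, adjusted p = 0.000567).

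Most of the mitochondrial genes with counts in every library were higher in organoids. Against MEFs all 7 tested were called higher, with log2 differences from 1.30 to 2.19 (median 1.57), where 34.6% of all 13144 genes were called higher. Against m-ICc12 mt-Nd1, mt-Nd2, mt-Nd4, mt-Nd5 and mt-Cytb were called higher, 5 of the 8 tested, with a median of 0.86 over the 8, where 31.6% of all 12962 genes were called higher. These genes go up and down together among the organoid libraries, as given below, so that their calls are not separate results. mt-Nd2, a proton-pumping subunit of complex I, had 2315 to 5754 CPM in organoids (median 3296), 1458, 2224 and 951 CPM in m-ICc12 and 1553, 975 and 1228 CPM in MEFs. It was the 1 mitochondrial gene whose organoid range lay above that of m-ICc12 (log2 difference 1.27, SE 0.29, adjusted p = 0.00109). mt-Cytb, the cytochrome b of complex III, had 4262 to 10263 CPM in organoids, 3574, 5251 and 2348 CPM in m-ICc12 and 2877, 2013 and 3105 CPM in MEFs, with log2 differences of 0.82 (SE 0.28, adjusted p = 0.0171) and 1.30 (SE 0.26, adjusted p = 0.000359). These calls against m-ICc12 rest on few cultures. Without m-ICc12 3, the culture with the lowest mitochondrial levels, only mt-Nd2 was called, and without m-ICc12 1 the calls of mt-Cytb, mt-Nd4 and mt-Nd5 were lost. The call of mt-Nd6, the 1 member read from the other strand, with 13.6 to 104 CPM in organoids and 14.1, 12.2 and 20.0 CPM in MEFs (log2 difference 1.47, SE 0.51, adjusted p = 0.018), was lost without MEF 1 or without MEF 2.

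mt-Co1, which encodes the catalytic subunit of complex IV, was the most abundant member, with 10768 CPM per kb in organoids, and it took unequal shares of the mitochondrial counts. Organoids had 10940 to 28810 CPM (median 14409), m-ICc12 11192, 15996 and 6791 CPM and MEFs 4180, 2837 and 4069 CPM. The organoid and m-ICc12 ranges overlapped (log2 difference 0.58, SE 0.32, adjusted p = 0.127) and both lay above all MEF libraries (2.19, SE 0.32, adjusted p = 1.86e-05 and 1.56, SE 0.26, adjusted p = 0.000193). As a share of the 12 mitochondrial genes, mt-Co1 took 42.7% ± 2.34 (SD, n = 9) in organoids, 49.0% ± 0.930 (SD, n = 3) in m-ICc12 and 31.5% ± 0.451 (SD, n = 3) in MEFs, ranges that did not overlap. mt-Cytb took 17.0% ± 0.873, 16.2% ± 0.421 and 22.7% ± 1.48 in the same order, with overlapping ranges in organoids and m-ICc12. The mean shares of mt-Nd1, mt-Nd2, mt-Nd4 and mt-Nd5 were also highest in MEFs and lowest in m-ICc12. As these are shares of 1 total, a larger share of mt-Co1 leaves less for the other genes. Of the stretches of mt-Co1, 27.3% are shared with Gm29216 as shown above, and those of mt-Cytb are not shared. Between the cell lines mt-Nd4 (0.72, adjusted p = 0.0309) and mt-Nd5 (0.66, adjusted p = 0.0467) were called as well, but lost the call without m-ICc12 1, m-ICc12 2, MEF 2 or MEF 3. mt-Nd4l was also called, on 30, 30 and 32 counts in m-ICc12 against 1, 1 and 0 in MEFs, but is not read as a level, and the m-ICc12 libraries labelled TNF had 1, 5 and 11 counts.

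**Figure D4:**
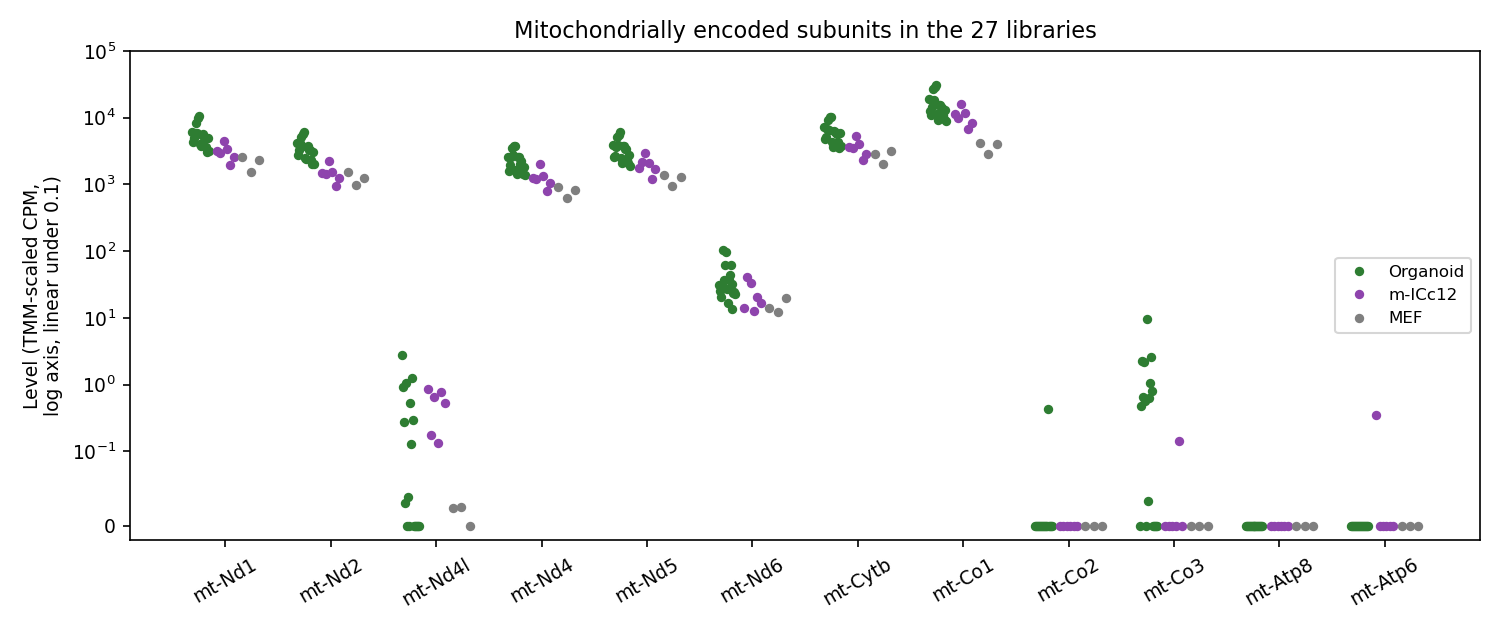
CPM (vertical axis, logarithmic with a linear stretch near 0) of the 12 mitochondrial genes, with 1 point for each of the 27 libraries coloured by cell type. The 7 genes with at least 10 counts in every library stand apart from mt-Nd4l, mt-Co2, mt-Co3, mt-Atp8 and mt-Atp6 near 0, and the MEF points of mt-Co1 lie lowest, at 2837 to 4180 CPM.

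Among the organoid libraries themselves, the nuclear genes were steady and the mitochondrial genes were not. Among those labelled untreated (n = 9), the coefficient of variation of CPM ranged from 5.79% to 65.5% with a median of 12.97% for the 78 nuclear genes that passed the count filter there. It was 32.7% (31.1% to 67.4%) for the 7 mitochondrial genes and 20.3% for all 10602 genes with at least 10 counts in every one of these libraries. The mitochondrial genes went up and down together. The Pearson correlation of their CPM over the 9 libraries lay between 0.784 and 0.991 with a median of 0.969, a description over libraries in which most of these genes share 1 precursor RNA and all share depth and scaling. Z911 and Z910 were high (63900 and 57661 CPM in sum, labelled untreated) and Z918 and Z912 were low (25318 and 26132 CPM), while the nuclear sum of these 4 cultures was 17951, 17747, 17244 and 16983 CPM.

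Other genes of the same system were taken from lists. Of 41 assembly factors, which build the complexes without being part of them, 13 were higher and 3 lower in organoids than in m-ICc12, and 21 higher and 2 lower than in MEFs. Beside each list here stand the shares of all genes tested, 31.6% and 34.6% called higher and 29.3% and 32.6% called lower. Of 13 genes of the citric acid cycle, 8 and 13 were higher in organoids and 0 lower. Of 15 genes of mitochondrial transcription and RNA, 0 were called against m-ICc12, and 1 was higher and 1 lower against MEFs. Tfam, which packs and transcribes mitochondrial DNA, had 90.8, 75.1 and 73.1 CPM on average in organoids, m-ICc12 and MEFs, with log2 differences of 0.29 and 0.33 (adjusted p = 0.081 and 0.0564). The polymerase Polrmt and the RNA-stabilising partners Lrpprc and Slirp were not called in these comparisons (adjusted p from 0.0649 to 0.814). Of 8 genes often used for mitochondrial mass, 1 was higher and 1 lower against m-ICc12, and 4 and 4 against MEFs. Vdac1, the outer membrane channel and 1 of the 4 of these genes higher against MEFs, had 0.19 (adjusted p = 0.0923) against m-ICc12 and 0.43 (adjusted p = 0.000409) against MEFs. Citrate synthase, Cs, which was counted with the citric acid cycle, had -0.05 (adjusted p = 0.649) and 0.32 (adjusted p = 0.00759). Cytochrome c, Cycs, had 0.17 (adjusted p = 0.375) and 0.54 (adjusted p = 0.00964). Of 21 glycolysis genes, 9 were higher and 6 lower against m-ICc12, and 12 and 6 against MEFs.

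The regulators that are known to drive these genes differed in level between the cell types and not in 1 order. Esrra, the oestrogen-related receptor that binds the ERR motif, had means of 147, 45.9 and 14.6 CPM in organoids, m-ICc12 and MEFs (log2 differences 1.70 for organoid against m-ICc12 and 3.35 for organoid against MEF, both called). Ppargc1b, a coactivator of that receptor, had 13.7, 2.84 and 0.31 CPM in the same order, all called. Ppargc1a, its better known relative, was highest in m-ICc12, with 11.8, 47.5 and 0.03 CPM (log2 difference of organoid against m-ICc12 -1.98, SE 0.31, adjusted p = 3.03e-05), at least 136-fold higher in organoids and at least 546-fold higher in m-ICc12 than in MEFs. Nrf1 and Gabpa, whose motifs were counted above, were highest in MEFs, at 47.0, 38.5 and 62.5 CPM and at 58.2, 72.1 and 132 CPM, and were lower in organoids than in MEFs by 0.40 and 1.17 on the log2 scale (adjusted p = 0.041 and 1.25e-05). Of the lactate dehydrogenase subunits, Ldha had 1801, 696 and 1006 CPM (log2 difference 1.39 against m-ICc12 and 0.86 against MEFs, both called). Ldhb had 1.59, 326 and 2.51 CPM (log2 difference of organoid against m-ICc12 -7.65, SE 0.55, adjusted p = 3.78e-09).

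The next comparison asked what TNF did to these genes. No subunit was called by label in organoids. Of 79 nuclear genes tested, 0 had an adjusted p under 0.05 in edgeR or DESeq2, where 1.39% of all 12104 genes were called, and the median log2 difference (labelled untreated minus labelled TNF) was 0.02. At an unadjusted p under 0.05, edgeR had 5 nuclear genes, Ndufa1, Cox6b1, Ndufa11, Cox7a2l and Ndufa2, all higher in the libraries labelled untreated, and DESeq2 had 4, and neither had any of the 8 mitochondrial genes tested. Of all 12104 genes, 1072 reached this in edgeR and 1140 in DESeq2. As the 2 libraries of a number come from the same animal, the fit with the culture as a block was also read. In the blocked fit 3.28% of all genes were called, among them 1 nuclear and 1 mitochondrial subunit. At an unadjusted p under 0.05 it had 12 nuclear genes, 8 higher and 4 lower in the libraries labelled untreated, and 6 of the 8 mitochondrial genes, all higher there. Of all 12104 genes, 1674 reached this in the blocked fit, so that the nuclear count lies near the share of all genes. Cox7a2l had 240 to 313 CPM (median 279) in the libraries labelled untreated and 215 to 260.4 CPM in those labelled TNF, overlapping ranges, and was higher in those labelled untreated in 8 of 9 cultures (log2 difference 0.20, SE 0.056, adjusted p = 0.0329). mt-Cytb was higher in 7 of 9 cultures (log2 difference 0.22, SE 0.061, adjusted p = 0.031). Over the 9 cultures its difference ranged from -0.40 to 0.62 (SD 0.338), a wider spread than the SE of the fit reflects. The mitochondrial genes go up and down together among the organoid libraries, as given above, so that the 6 are not separate results. 

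Within single organoid cultures, the sum of the nuclear subunits differed between the labels by -0.07 to 0.07 on the log2 scale (mean 0.00067, SD 0.0493, n = 9) and was higher in the library labelled untreated in 5 of 9. The mitochondrial sum differed by -0.38 to 0.58 (mean 0.18, SD 0.323, n = 9) and was higher there in 6 of 9. Z908, Z910 and Z919 had the largest differences towards the library labelled untreated (0.58, 0.50 and 0.55) and Z909 the largest towards that labelled TNF (-0.38). In m-ICc12 the nuclear sum differed by 0.45, -0.22 and -0.05 and the mitochondrial sum by 0.08, 0.44 and -0.32 in cultures 1, 2 and 3, so that neither had 1 direction. The first of these cultures holds the shallow library with the high share of Lars2. Of 78 nuclear and 8 mitochondrial genes tested in m-ICc12, 0 were called and 0 had an unadjusted p under 0.05, with edgeR and with DESeq2, where 0.11% of all 11861 genes were called. The difference by label was also compared between the cell types as an interaction. There 0 of 80 nuclear and 0 of 9 mitochondrial genes were called in edgeR or DESeq2, where 0.159% of all 13183 genes were called, and 1 gene, Ndufb3, had an unadjusted p under 0.05 in edgeR (0.53, SE 0.24, adjusted p = 0.739) and 0 in DESeq2. Of the lists above, the 1 gene called by label in organoids was Sdhaf1, an assembly factor of complex II. Its mean was 38.8 CPM in the libraries labelled untreated and 22.2 CPM in those labelled TNF (log2 difference 0.81, SE 0.17, adjusted p = 0.00569). Of all 12104 genes tested in organoids 1.39% were called, so that 1 call among these lists is not read as a result about them. Sdhaf1 was named after its values were seen.

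**Figure D5:**
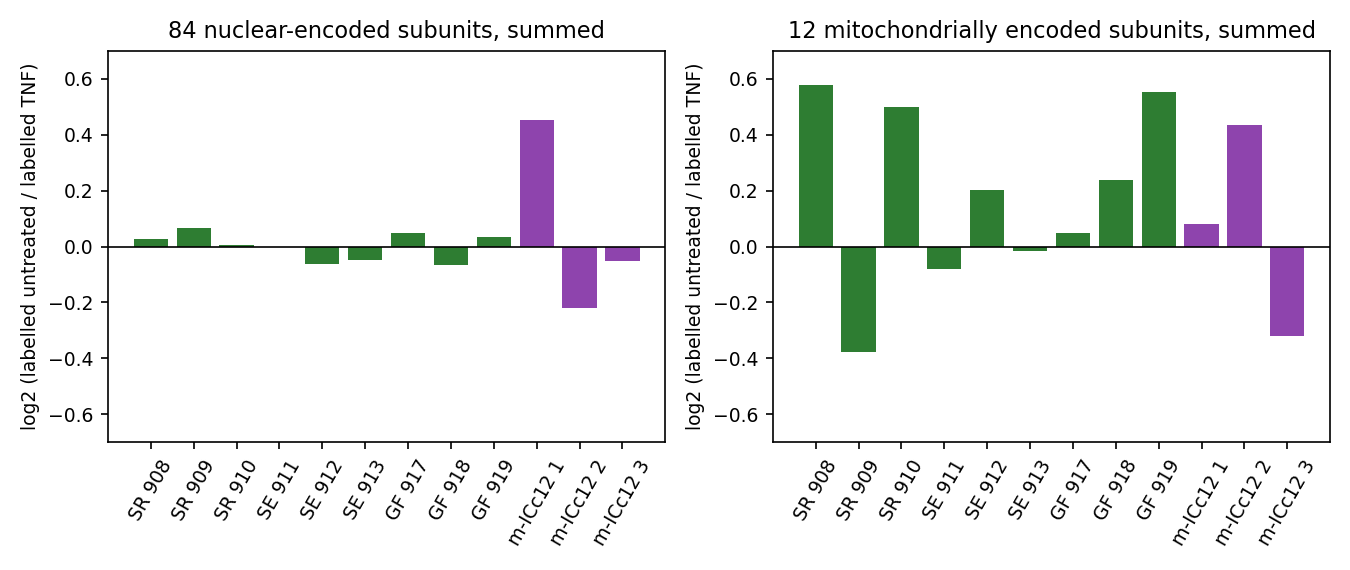
Log2 difference of the summed CPM (labelled untreated minus labelled TNF, vertical axis) in each of the 9 organoid and 3 m-ICc12 cultures, for the nuclear and the mitochondrial genes. The nuclear bars of organoids end between -0.07 and 0.07, and their mitochondrial bars between -0.38 and 0.58.

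The last comparison asked whether the donor's microbiota left a trace in the subunits. Between 3 GF and 6 SPF organoid libraries labelled untreated, 0 of 79 nuclear and 0 of 9 mitochondrial genes were called in edgeR or DESeq2, where 0.0325% of all 12315 genes were called. The median log2 difference (GF minus SPF) was -0.08 for the nuclear genes and -0.50 for the mitochondrial genes. At an unadjusted p under 0.05, edgeR had 3 nuclear genes, Atp5e, Atp5g2 and Cox8a, and 6 mitochondrial genes, all lower in GF, and DESeq2 had 5 and 1. Of all 12315 genes, 491 reached this in edgeR and 585 in DESeq2. The adjusted p was 0.99997 for each of them in edgeR. The 9 mitochondrial genes tested include mt-Co3 and mt-Nd4l, which are not read as levels, and mt-Nd4l is among the 6. The 7 with at least 10 counts in every library go up and down together, as given above, so that the 6 are not separate results. The mitochondrial sum was 34296, 25318 and 31238 CPM in the GF cultures Z917, Z918 and Z919. In the SPF cultures it was 42579, 28829 and 57661 CPM for Z908, Z909 and Z910 and 63900, 26132 and 37113 CPM for Z911, Z912 and Z913, so that the GF values lay inside the SPF range but for the lowest of them. The nuclear sums were 17273 ± 619 CPM (SD, n = 3) in GF and 17828 ± 706 CPM (SD, n = 6) in SPF. With 3 against 6 cultures in 3 facilities, facility, litter and microbiota cannot be told apart for GF. mt-Nd4 had a mean of 1851 CPM in GF and 2663 CPM in SPF (log2 difference -0.53, SE 0.21), a size that was not called with this number of cultures.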

How the data were processed

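Poly(A) RNA was sequenced from 27 libraries. Per the labels and the study's methods, the authors deposited counts of single-end reads per gene, from a TruSeq kit that the labels call stranded, made by trimming with Trimmomatic, which removed 5 bases at the 3′ end, alignment to GRCm38 with Ensembl release 91 and counting. The submitters' processing notes name STAR 2.5.4b, bcl2fastq 2.19, featureCounts and edgeR. The methods name another STAR version and another counter, and the strand setting and the handling of reads with several alignments are not given in the sources used here. The deposited names carry the opposite treatment from the sample labels in 12 cultures, and the labels were followed.

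All tests started from the raw counts. Genes were kept that reached 10 counts in 50% or more of a group's libraries, then scaled by TMM and fitted with the edgeR 4.0.16 quasi-likelihood F-test in R 4.3.3 on the groups compared, and p was adjusted over all genes tested (Benjamini-Hochberg). An adjusted p under 0.05 is a call. Each adjusted p in the text is from this test unless another is named, and SE is the log2 difference divided by the square root of F. Differences between cell types used the libraries labelled untreated. DESeq2 1.42.0, no filter, no TMM, the exchanged treatment, all libraries in 1 fit, both libraries of a culture summed and leaving out each replicate were alternatives. The scripts were tested on simulated counts. Levels at 0 were set to a floor of 3 counts per library, 0.0684 to 0.494 CPM, for fold bounds. Levels per kilobase used principal transcript lengths.

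Both organoid libraries of a number come from 1 animal. Their deviations from the group means correlated at 0.0719 to 0.237, and in 9 of 9 cultures best with each other, so that the blocked fit was read beside the main one. Named were all mitochondrial members, per comparison the 6 nuclear members with the largest called difference in each direction, isoform pairs, the highest and lowest member of each complex per kilobase, and listed regulators and metabolic genes. Other members in the text, such as the core subunits of complex I, were picked for their roles after their values were seen. The members and lists were chosen with earlier results of these data known.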

Additional observations from a re-analysis of the deposited data

Results flagged for a closer look

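In 72 sets of 9 organoid values (the sums and named genes, by label) the highest or lowest library was compared with the others by Dixon's ratio, and 12 values stood apart. Chance alone marks about 1 in 20 such groups, and 9 of the 12 are mitochondrial values of a single library, so that they are not separate events. Among the organoid libraries labelled TNF, the SE culture Z911 had the highest mitochondrial sum, 67587 CPM, with the nearest other library at 40848 CPM. In that library the mitochondrial subunits of complex I summed to 26530 CPM (26529.9), those of complex III to 10344 CPM and those of complex IV to 30714 CPM. By gene it was highest for mt-Nd1 (10587 CPM), mt-Nd5 (6129.9 CPM), mt-Nd6 (97.1 CPM), mt-Cytb (10344 CPM) and mt-Co1 (30704 CPM). It had the lowest total of the organoid libraries, 11440041 counts, and its partner from the same culture, labelled untreated, also had the highest mitochondrial sum of its group, 63900 CPM. Atp5j, a peripheral stalk subunit of ATP synthase, was highest in the same library labelled TNF with 229.7 CPM. Atp5l was highest in the library labelled untreated of that culture with 8.36 CPM. Sdhc, an anchor of complex II, was lowest in the library labelled untreated of the GF culture Z918 with 194 CPM.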

How the results depend on the processing

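Counts of called subunits stayed within 1.5 times and kept their direction in all alternatives other than these. For organoid against m-ICc12, 1 nuclear gene was lower with DESeq2 and 1 with the exchanged treatment (2 in the fit reported), and 1 mitochondrial gene was lower without the count filter (mt-Atp6, 12 counts in 1 library). For m-ICc12 against MEF, 29 nuclear genes were higher with both libraries of a culture summed (19 in the fit reported), 3 were lower with the exchanged treatment (5 in the fit reported), and 2 mitochondrial genes were higher with DESeq2 and 2 with all libraries in 1 fit (4 in the fit reported). The replicate block gave 1 nuclear and 1 mitochondrial call by label in organoids, and it changed no other call. In m-ICc12, where the libraries of a culture share only a number (correlations -0.000796 to 0.0926, 2 of 3 best with their own), the block gave 0 calls of subunits and 6 of all genes, against 13 without it. Leaving out 1 replicate at a time, the mitochondrial genes called higher ranged from 1 to 6 for organoid against m-ICc12, from 6 to 9 for organoid against MEF and from 2 to 6 for m-ICc12 against MEF, and the nuclear genes from 56 to 63, from 64 to 69 and from 16 to 21, with 2 to 6 lower in the last. Of 41 values of named genes, 27 kept their call in every alternative and 14 lost it in at least 1, and 0 changed sign. Atp5l lost its call against MEF without MEF 2 or MEF 3. Without TMM the median of all genes for organoid against m-ICc12 moved from 0.03 to -0.09 and that of the nuclear subunits from 0.89 to 0.77. Leaving out Lars2, an alternative chosen after seeing the data, changed no count of subunits. The cause of these changes was not tested. A level under the floor, 0.0684 to 0.494 CPM, could not be told from 0.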

Other observations

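Of the mitochondrial genes near 0, mt-Nd4l had 0 counts in all 6 GF libraries, whereas 10 of the 12 SPF libraries had 1 to 75 counts, and mt-Co3 was at 0 in 5 of 6 GF and 2 of 12 SPF libraries. In the libraries labelled untreated the mt-Nd4l counts were 75, 8 and 18 in Z908, Z909 and Z910 and 1, 16 and 32 in Z911, Z912 and Z913. Both genes share nearly all their sequence with pseudogenes on chromosome 1, and facility and litter cannot be told apart from germ-free status. The difference between GF and SPF for mt-Nd4l was not called (edgeR, unadjusted p = 0.00511, adjusted p = 0.99997).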
